A study of Homo sapiens with 9 samples.

Results

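The human nuclear genome carries a block of 7 pseudogenes on chromosome 1 that are copies of mitochondrial genes lying side by side, and their levels were examined in all 9 libraries. MTND1P23, MTND2P28, MTCO1P12, MTCO2P12, MTATP8P1, MTATP6P1 and MTCO3P12 were chosen by their RPKM levels in these same libraries, seen in an earlier look at them, and matched by symbol to Ensembl identifiers, which gave 7 of the 57338 genes measured. Their levels in these libraries are therefore given as descriptions. A fit across all genes includes them, and its calls among them are counted as a description that supports nothing. HEK293T cells, a human embryonic kidney line, received a plasmid encoding EGFP, a green fluorescent protein (empty vector), or a fusion of EGFP with the human protamine hPRM1 or hPRM2, and cells with a high EGFP signal were sorted 3 days later. Each condition had 3 libraries made with the QuantSeq 3′ kit, which reads the 3′ end of polyadenylated transcripts. Protamines are small basic proteins that replace histones on sperm DNA, and the study asked how they change transcription in somatic cells. Nothing in the labels says that replicates came from separate cultures, so p-values measure the spread between these libraries, which may be technical.

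Mitochondria keep a small circular genome that encodes a few subunits of the respiratory chain and of ATP synthase, together with their own ribosomal and transfer RNAs. Its transcripts are abundant and polyadenylated. Pieces of this genome have been inserted into nuclear chromosomes during evolution, and such nuclear copies are pseudogenes for which no protein is expected, because mitochondria use another genetic code. A read from a stretch that a copy and its mitochondrial gene share base for base can be placed on either of them. The authors removed mitochondrial genes from the deposited table, and 0 of the 37 mitochondrial genes of GENCODE 29 were in it. The origin of the reads counted on the 7 copies was not tested, and where the sequences are identical a nuclear and a mitochondrial origin cannot be told apart in this table.

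The block spans chr1:629062-634922 of GRCh38 on the plus strand, 5861 bases in all, and GENCODE 29 lists each of the 7 copies as an unprocessed pseudogene. MTND1P23 (ENSG00000225972, 629062 to 629433) and MTND2P28 (ENSG00000225630, 629640 to 630683) are copies of the genes for the complex I subunits ND1 and ND2. MTCO1P12 (ENSG00000237973, 631074 to 632616), MTCO2P12 (ENSG00000229344, 632757 to 633438) and MTCO3P12 (ENSG00000198744, 634376 to 634922) derive from the genes for the 3 core subunits of cytochrome c oxidase. MTATP8P1 (ENSG00000240409, 633535 to 633741) and MTATP6P1 (ENSG00000248527, 633696 to 634376) are copies of the 2 mitochondrial ATP synthase genes and overlap each other on the same strand, as their originals do. Reads in the overlap of this pair could be assigned to either gene.

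The 3′ ends are shown because 3′ libraries read that part of a transcript. The sequences are those of GENCODE 29 on GRCh38, written 5′ to 3′ as DNA, with the mitochondrial gene under each copy. Capitals mark bases that differ between the pair or have no counterpart in it. The first pairs are the last 160 bases of the 2 copies with the most reads, MTND1P23 and MTATP6P1.
MTND1P23: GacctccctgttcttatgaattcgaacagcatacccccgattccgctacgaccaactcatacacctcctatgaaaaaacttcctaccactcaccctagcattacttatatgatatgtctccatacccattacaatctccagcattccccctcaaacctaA
MT-ND1: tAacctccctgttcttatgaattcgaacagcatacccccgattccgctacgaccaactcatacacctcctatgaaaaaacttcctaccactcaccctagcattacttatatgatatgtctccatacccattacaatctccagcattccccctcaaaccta
MTATP6P1: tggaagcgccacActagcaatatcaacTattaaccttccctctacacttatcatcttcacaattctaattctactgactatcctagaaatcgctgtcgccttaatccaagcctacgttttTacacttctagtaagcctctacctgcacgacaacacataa
MT-ATP6: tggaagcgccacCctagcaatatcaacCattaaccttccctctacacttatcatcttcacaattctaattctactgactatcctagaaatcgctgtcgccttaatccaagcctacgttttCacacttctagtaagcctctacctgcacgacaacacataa

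Substitutions are written with the mitochondrial base first, then the position from 1 at the 5′ end of the copy, then the base of the copy. MTND1P23 holds only the 3′ part of MT-ND1, from base 605 to base 956 of that gene, with 99.1% identity over 352 aligned bases. Its last substitution is A213G, and the 158 bases after it are identical to MT-ND1 before 1 extra base at the end. MTATP6P1 covers all 681 bases of MT-ATP6 with 98.5% identity and 10 substitutions. C534A, C549T and C642T are the last of these, and the final 39 bases are identical.

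The next pairs are the last 160 bases of MTND2P28, whose 3′ end differs most, and of MTCO1P12, with a long identical end, and then the whole of MTATP8P1, the shortest copy.
MTND2P28: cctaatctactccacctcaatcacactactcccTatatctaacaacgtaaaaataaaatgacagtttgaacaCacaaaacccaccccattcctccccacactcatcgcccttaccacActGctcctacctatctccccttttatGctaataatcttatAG
MT-ND2: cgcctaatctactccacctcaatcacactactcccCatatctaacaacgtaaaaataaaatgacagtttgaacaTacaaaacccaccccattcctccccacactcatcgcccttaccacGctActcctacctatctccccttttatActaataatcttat
MTCO1P12: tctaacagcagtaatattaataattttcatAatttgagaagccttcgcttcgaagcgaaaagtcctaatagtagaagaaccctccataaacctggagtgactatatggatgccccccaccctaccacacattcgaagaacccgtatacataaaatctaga
MT-CO1: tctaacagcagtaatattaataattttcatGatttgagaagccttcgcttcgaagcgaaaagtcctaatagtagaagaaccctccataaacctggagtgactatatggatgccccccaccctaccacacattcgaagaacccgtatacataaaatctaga
MTATP8P1: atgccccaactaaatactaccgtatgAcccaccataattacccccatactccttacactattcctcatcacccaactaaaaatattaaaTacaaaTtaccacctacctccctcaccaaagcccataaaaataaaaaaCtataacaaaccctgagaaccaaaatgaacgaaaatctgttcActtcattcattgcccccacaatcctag
MT-ATP8: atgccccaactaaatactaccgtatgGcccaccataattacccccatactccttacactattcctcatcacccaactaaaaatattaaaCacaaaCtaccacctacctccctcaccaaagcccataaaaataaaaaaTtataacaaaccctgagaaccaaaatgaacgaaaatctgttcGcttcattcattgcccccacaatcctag

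MTND2P28 carried 4 substitutions in its last 100 bases, T957C, G1002A, A1005G and A1029G, and was 98.4% identical to MT-ND2 in total. MTCO1P12 was identical to MT-CO1 over its last 129 bases after G1414A. MTATP8P1 differed by G27A, C90T, C96T, T138C and G180A, with 97.6% identity over 207 bases. MTCO2P12 was 98.0% identical to MT-CO2 and matched it over the last 66 bases. MTCO3P12 was identical to MT-CO3 over its last 124 bases but stops 237 bases before the mitochondrial gene ends, so it lacks the part next to the poly(A) tail of MT-CO3. Of all stretches of 50 bases, 61.9% of those in MTND1P23 occurred unchanged in a mitochondrial transcript, against 46.7% in MTATP6P1 and 8.23% in MTATP8P1.

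Levels are the deposited RPKM values, described by the authors as reads per kilobase of gene length scaled to the total reads. The reads behind them were estimated from the smallest steps between low values. These steps lined up with lengths less 250 bases, which leaves 122 of the 372 bases of MTND1P23. For MTATP8P1, with 207 bases, an effective length of 9.7 fitted. This raises the RPKM of short copies, so ranks by RPKM between copies depend partly on length. The libraries held an estimated 7930000 to 10790000 reads on genes for the empty vector, 4210000 to 5860000 for the libraries labelled hPRM1 and 1270000 to 2650000 for hPRM2. PRM1 was at 0 in all 9 libraries, the 3 labelled hPRM1 included, while PRM2 was at 36130 to 71224 RPKM in hPRM2 and at 0 elsewhere. In the libraries labelled hPRM1, the 4 haemoglobin markers summed to 2059902 to 2265722 RPKM (at most 18 in the other 6 libraries), the 7 neutrophil and monocyte markers to 5585 to 6440 RPKM (at most 5.41 elsewhere), the 7 lymphocyte markers to 559 to 772 RPKM (0 elsewhere) and the 5 platelet markers to 319 to 560 RPKM (at most 13.5 elsewhere). Their 8 HEK293T markers summed to 0.0746 to 1.31 RPKM, with 6 or 7 of them at 0, against 201 to 291 RPKM in the others. The part of this cell content in the lower levels of the copies was not tested. These 3 libraries also carry library numbers of another series, so that for them condition, cell content and library batch cannot be told apart. Replicate 1 of hPRM2 stood apart as well, with 9652 genes above 0 against 14353 and 15633 in replicates 2 and 3. Correlations of log2 values with those 2 libraries, across genes, were 0.67 and 0.70.

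The 7 copies together took 0.321%, 0.274% and 0.532% of the reads on genes in the empty vector libraries. In the libraries labelled hPRM1 the shares were 0.0745%, 0.0888% and 0.0710%, and in hPRM2 they were 1.65%, 0.222% and 0.288%. The libraries labelled hPRM1 thus lay below all others, and hPRM2 overlapped the empty vector only through its replicate 3, with replicate 1 above and replicate 2 below the empty vector range. The exact binomial 95% interval of the largest share, in hPRM2 replicate 1, was 1.64% to 1.67%, and that of the smallest was 0.0687% to 0.0732%. These intervals cover counting error only. In a bulk library, fewer cells with such RNA and less of it per cell cannot be told apart.

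**Figure D1:**
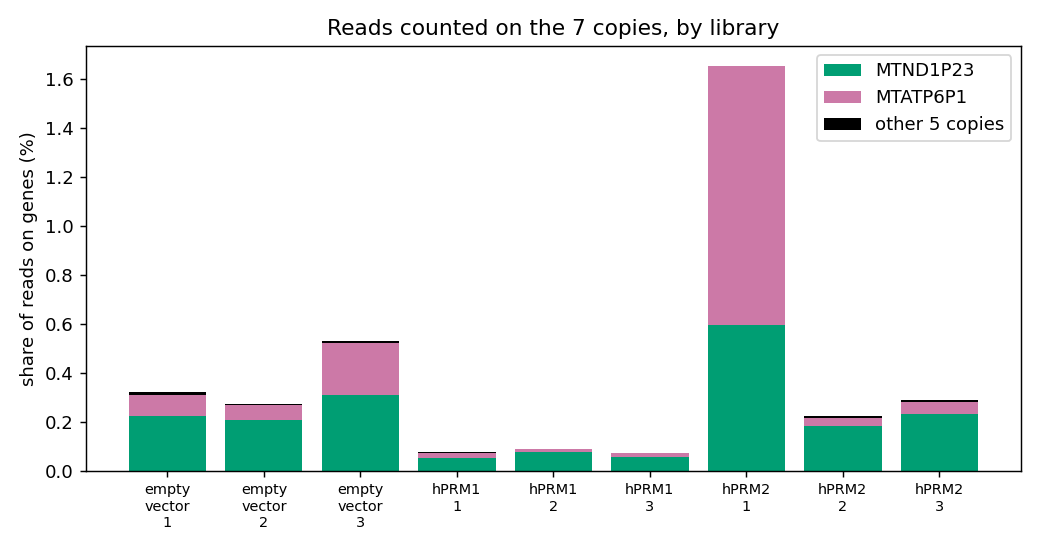
Stacked bars give the share of reads on genes, in percent, counted on MTND1P23 (green), MTATP6P1 (pink) and the other 5 copies (black) in each library. MTND1P23 and MTATP6P1 fill nearly the whole of every bar, and the bar of hPRM2 replicate 1 reaches 1.65%.

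MTND1P23 and MTATP6P1 carried between 96.6% and 99.9% of the reads of the block in every library. By RPKM, which is per length, MTND1P23 had the highest and MTATP6P1 the second highest level in 9 of 9 libraries. By reads the order was the same in 8 of 9 libraries and turned around in hPRM2 replicate 1. For each read on MTND1P23 there were 0.377, 0.304 and 0.682 reads on MTATP6P1 in the empty vector libraries, 0.413, 0.152 and 0.224 in those labelled hPRM1, and 1.78, 0.186 and 0.209 in hPRM2. The 2 copies therefore did not keep a fixed ratio within any group.

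MTND1P23 reached 18463, 16994 and 25476 RPKM in the empty vector, a mean of 20311 ± 4533 (SD, n = 3). The values were 4308, 6308 and 4727 RPKM in the libraries labelled hPRM1 (5114 ± 1055) and 48699, 14917 and 19075 RPKM in hPRM2 (27564 ± 18422). All 3 libraries labelled hPRM1 lay below every other library, whereas the hPRM2 values reached above and below those of the empty vector. Between 2317 and 33521 reads stood behind each of these values. The difference from the empty vector on the log2(RPKM + 1) scale was -1.99 ± 0.21 (SE) for the libraries labelled hPRM1, but 0.20 after median-of-ratios rescaling and 0.058 after quantile normalization. For hPRM2 it was 0.26 ± 0.44, and -0.25 ± 0.21 without replicate 1.

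MTATP6P1 reached 1970, 1464 and 4918 RPKM in the empty vector (2784 ± 1865, SD, n = 3). It was at 504, 271 and 299 RPKM in the libraries labelled hPRM1 (358 ± 127) and at 24583, 784 and 1129 RPKM in hPRM2 (8832 ± 13642). Replicate 1 of hPRM2, with 28105 reads on this copy, was higher than any other library and the other 2 hPRM2 libraries were below the whole empty vector range. The libraries labelled hPRM1 were again lowest, and they did not overlap the other groups. The log2 difference was -2.81 ± 0.48 (SE) for them, but -0.62 after median-of-ratios rescaling and -0.80 after quantile normalization. For hPRM2 it was 0.21 ± 1.26, which became -1.36 ± 0.52 without replicate 1.

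MTND2P28 had the third highest RPKM of the block in 6 of 9 libraries, far below MTND1P23. Its levels were 112, 25.6 and 85.4 RPKM in the empty vector libraries, 0.252, 1.25 and 2.35 RPKM in those labelled hPRM1, and 8.15, 41.4 and 61.7 RPKM in hPRM2. The hPRM2 libraries overlapped the empty vector, and the lowest of them was replicate 1, in which MTND1P23 and MTATP6P1 were highest. The libraries labelled hPRM1 held an estimated 1.17, 4.19 and 9.75 reads on this copy, against 174 to 731 in the empty vector. The estimates are not whole because reads can be divided between genes by the counting.

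MTCO1P12 was the steadiest copy in the empty vector, with 13.2, 13.0 and 14.5 RPKM. It was at 0.300, 0.203 and 1.05 RPKM in the libraries labelled hPRM1 and at 0, 20.1 and 13.4 RPKM in hPRM2. An estimated 2.27, 1.10 and 7.08 reads stood behind the values labelled hPRM1, against 135 to 203 in the empty vector. The hPRM2 values fell on both sides of the empty vector. The 0 was in replicate 1, where 3 reads would have given 0.875 RPKM.

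MTCO2P12 and MTCO3P12 rested on few reads in every library. MTCO2P12 was at 2.93, 2.71 and 0.431 RPKM in the empty vector libraries, 1.58, 0.550 and 0.444 RPKM in those labelled hPRM1, and 4.38, 3.65 and 1.44 RPKM in hPRM2, from 1 to 10 reads. MTCO3P12 was at 7.65, 0.394 and 4.37 RPKM, 2.30, 1.60 and 1.29 RPKM, and 0, 2.64 and 4.19 RPKM in the same order, from 0 to 18 reads. For both copies all 3 groups overlapped, and no difference between groups was detectable at this depth.

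MTATP8P1 is shorter than the 250 bases that were subtracted from other lengths, so each of its reads weighs heavily. It was at 12.9, 180 and 19.0 RPKM in the empty vector, which correspond to 1, 15 and 2 reads. It was at 0, 24.4 and 0 RPKM in the libraries labelled hPRM1, from 1 read, and at 0 in all 3 hPRM2 libraries. In hPRM2 3 reads would have given 116, 242 and 192 RPKM, above the empty vector values of 12.9 and 19.0 RPKM in every hPRM2 library, so a lower level in hPRM2 was not detectable at this depth and no fold change is given.

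By mean RPKM over the 9 libraries the copies ran from MTND1P23 at 17663 and MTATP6P1 at 3991 to MTND2P28 at 37.6, MTATP8P1 at 26.3, MTCO1P12 at 8.43, MTCO3P12 at 2.72 and MTCO2P12 at 2.01. The place of MTATP8P1 rests on its short length and few reads. It was above 0 in 4 of 9 libraries, with 15 reads behind its highest value, in empty vector replicate 2. The libraries of MTATP6P1, at 271 RPKM or more, did not overlap those of MTND2P28, at 112 RPKM or less. From MTND2P28 downward, each copy overlapped the next in this order across the libraries.

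**Figure D2:**
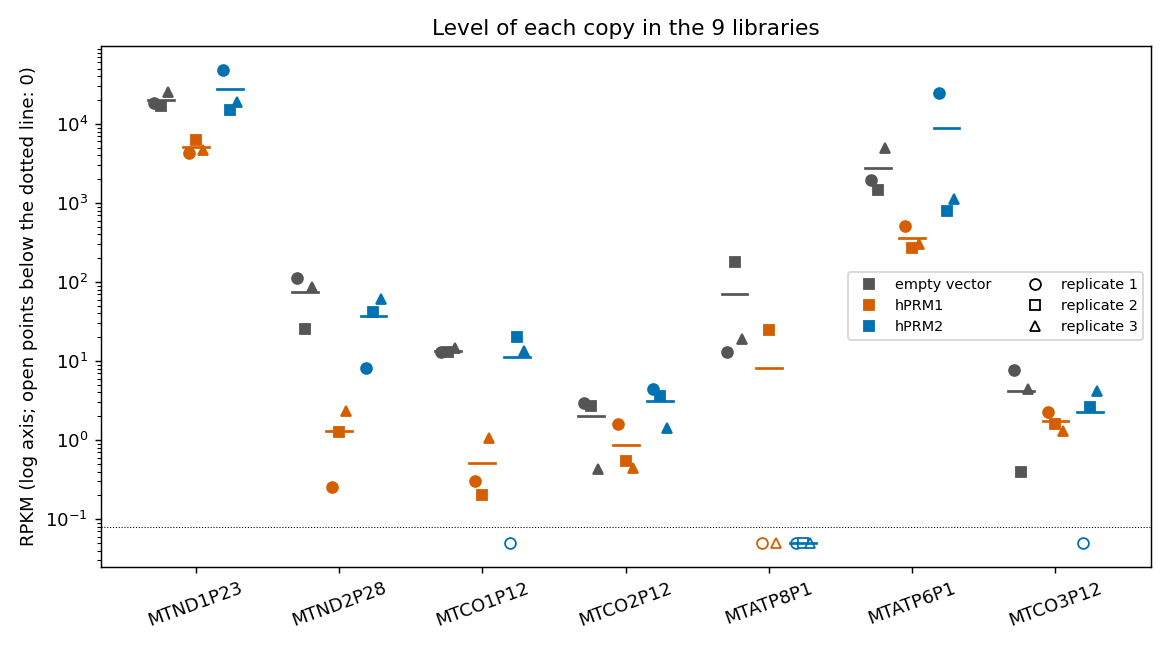
Points are the RPKM of each copy in each library on a log axis, coloured by condition and shaped by replicate, and short lines are group means; open points under the dotted line are at 0. The libraries labelled hPRM1 (orange) lie lowest for MTND1P23, MTND2P28 and MTATP6P1, and hPRM2 replicate 1 (blue circle) is highest for MTND1P23 at 48699 RPKM and for MTATP6P1 at 24583 RPKM.

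Differences from the empty vector were fitted across all genes with limma. Genes were called at an adjusted p of 0.05 or less when they also differed 2-fold or more. In the libraries labelled hPRM1, 4 of the 7 copies were called lower (MTND1P23, MTND2P28, MTCO1P12 and MTATP6P1) and 0 higher, with a median log2 difference of -2.81 over the 7. MTND2P28 and MTCO1P12 reached 1 RPKM in only 2 and 1 of the libraries labelled hPRM1. The empty vector therefore carried them into the fit, and their calls, under any scaling, are not read as a result. Over all 13588 genes tested in that comparison, 62.5% were called lower and 12.9% higher, and the median log2 difference was -1.72. The same 4 copies were those whose groups did not overlap in the lower direction, as did 66.4% of all genes tested. Relative to the median of all genes, the differences were -0.27 for MTND1P23, -1.09 for MTATP6P1, -1.59 for MTCO1P12 and -3.20 for MTND2P28. For the copies not called, all with few reads, they were 1.10 for MTCO2P12, 1.14 for MTCO3P12 and -1.94 for MTATP8P1. With median-of-ratios rescaling, which moved the median of all genes to -0.12, or quantile normalization, which moved it to -0.38, 2 of the 7 copies were called lower (MTND2P28 and MTCO1P12), against 28.9% and 34.4% of all genes tested.

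In hPRM2, 1 of the 7 copies passed the thresholds as lower and 0 as higher. Of all 13126 genes tested, 1.37% were called lower and 1.36% higher, and the median log2 difference was -0.72. The copy called was MTATP8P1, which entered the test only through the empty vector libraries, with their 1, 15 and 2 reads. Since 3 reads in hPRM2 would have exceeded at least 2 of the 3 empty vector values, its passing is not read as a lower level. It was also the only copy whose groups did not overlap in the lower direction, against 29.9% of all genes tested, and 0 copies lay apart in the higher direction, against 6.01%. The log2 differences of the other 6 copies ran from -1.14 ± 0.87 (SE) for MTND2P28 to 0.52 ± 0.64 for MTCO2P12. The hPRM1 and hPRM2 comparisons share the empty vector libraries. The members entered the list for their levels in these libraries, so nothing is read from the counts of called copies.

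**Figure D3:**
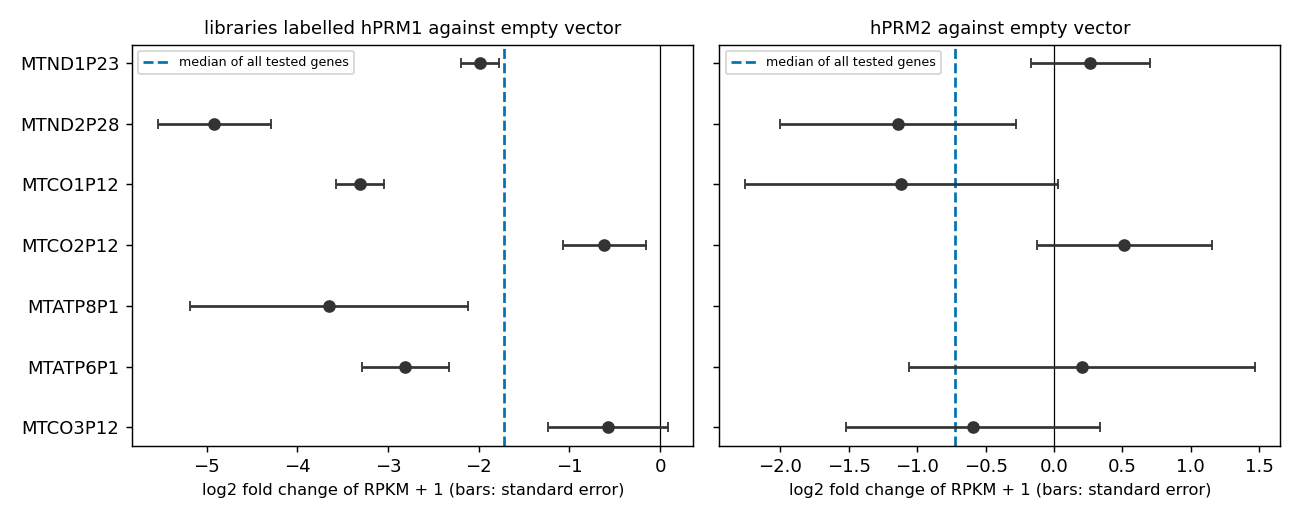
Points are log2 differences of RPKM + 1 from the empty vector for each copy, with standard errors, except MTATP8P1 in hPRM2, which was at 0 there, in the libraries labelled hPRM1 (left) and in hPRM2 (right); the dashed line is the median of all tested genes, at -1.72 and -0.72. MTND1P23 lies close to that line on the left, at -1.99, and its sign there turned under median-of-ratios rescaling and quantile normalization.

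The table held 405 further nuclear copies of mitochondrial genes on other chromosomes or elsewhere on chromosome 1, and 379 of them were at 0 in all 9 libraries. The longest run of bases shared with a mitochondrial transcript in the last 200 bases had a median of 92 bases over the 7 copies of the block, from 44 in MTND2P28 to 158 in MTND1P23. The median was 14 bases over the copies at 0 in all libraries, with a highest value of 48, and 29.5 over the 26 copies above 0 in at least 1 library. A run of at least 50 bases was found in 6 of the 7 members and in 6 other copies, and all of these 12 were above 0 in at least 1 library. For the members this was given in advance, because they were chosen by their levels. Of the 6 other copies, MTND5P11 and MTCO2P2 were above 0 in 1 library each and MTND6P4 in 2. Among the 26 other copies above 0, 6 had such a run. Across the members the run did not order the levels, since MTCO1P12 and MTCO3P12, with runs of 129 and 124 bases, had mean levels of 8.43 and 2.72 RPKM while MTATP6P1, with a run of 92 bases, had 3991 RPKM.

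**Figure D4:**
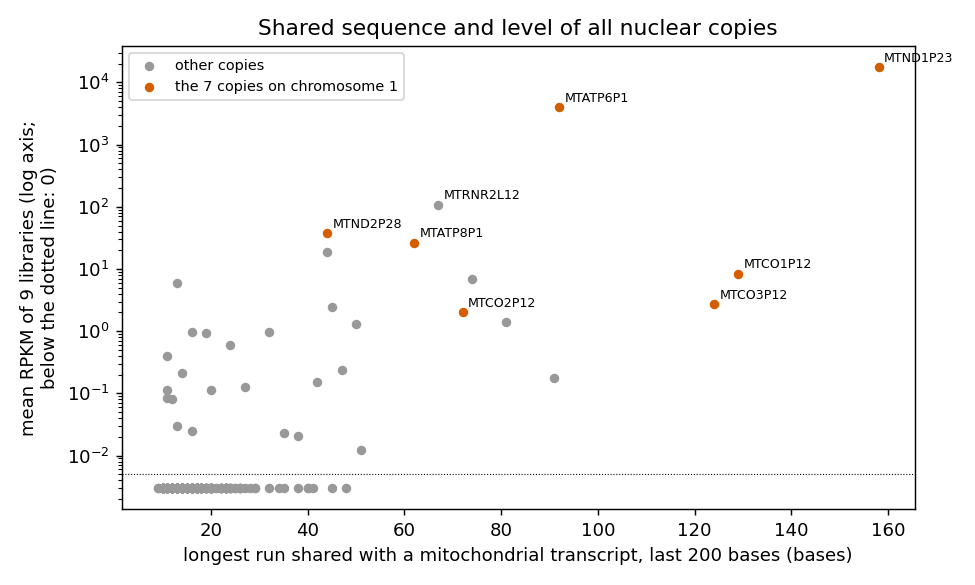
Each point is a nuclear copy (orange for the 7 on chromosome 1, grey for the 405 others), with the longest run shared with a mitochondrial transcript in its last 200 bases, in bases, against its mean RPKM over 9 libraries on a log axis; points under the dotted line are at 0. All points at 0 have runs of at most 48 bases, and MTND1P23 has both the longest run, 158 bases, and the highest level.

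Of the other copies, MTRNR2L12 had the highest mean level. This copy of the large mitochondrial ribosomal RNA gene on chromosome 3 (chr3:96617188-96618236) was 95.04% identical to MT-RNR2. The empty vector libraries held 165, 131 and 91.1 RPKM, those labelled hPRM1 held 1.92, 5.08 and 4.33 RPKM, and hPRM2 held 127, 240 and 201 RPKM. Its log2 difference was -4.79 ± 0.36 (SE) in the libraries labelled hPRM1 (limma, adjusted p = 3.37e-05) and 0.54 ± 0.38 in hPRM2 (adjusted p = 0.391). Unlike MTND1P23 and MTATP6P1, MTRNR2L12 was not highest in hPRM2 replicate 1, where it was at 127 RPKM.

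On chromosome 5, MTND4LP30 and MTND4P12 lie next to each other, as MT-ND4L and MT-ND4 do in the mitochondrial genome. MTND4LP30 was at 25.9, 28.8 and 55.2 RPKM in the empty vector, at 0 in the libraries labelled hPRM1, and at 0, 32.3 and 25.5 RPKM in hPRM2. It entered the hPRM1 comparison only through the empty vector, so no test of that difference is given. MTND4P12 was at 1.74 to 2.92 RPKM in the empty vector libraries, against 0.458, 0 and 0 RPKM in those labelled hPRM1. Its log2 difference there, -1.51, was 0.21 above the median of all genes. MTND4P12 too entered that comparison only through the empty vector, so no test of its difference is given. It was at 7.83, 2.80 and 3.89 RPKM in hPRM2. In hPRM2 limma called neither of them (adjusted p = 0.385 and 0.422). MTCO2P2 was above 0 in a single library, hPRM2 replicate 2, at 61.7 RPKM, and MTRNR2L8 stayed at 4.31 RPKM or less.

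MTND5P32 was above 0 only in the libraries labelled hPRM1. This copy on chromosome 15 (chr15:58152606-58154407) was at 0 in the empty vector and hPRM2, and at 12.7, 23.0 and 17.8 RPKM in the libraries labelled hPRM1, from 116, 150 and 144 reads. It entered the fit only through these libraries, so no test is given. It was 73.6% identical to MT-ND5, and its longest shared run at the 3′ end was 13 bases. It lies inside AQP9, a gene for a water channel of blood leukocytes and liver, on the same strand. AQP9, looked at after these values were seen, was at 15.4, 24.6 and 21.2 RPKM in the same 3 libraries and at 0 in the other 6. ALDH1A2, looked at in the same way, spans the copy on the opposite strand and went the other way. It was at 156 to 192 RPKM in the empty vector and 82.6 to 115 RPKM in hPRM2, against 0, 0 and 0.398 RPKM in the libraries labelled hPRM1. A link between the copy and either gene was not tested.

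Around the block, 6 genes of the table lay within 100 kb, and 1 of them reached 1 RPKM in at least 3 libraries. The gene ENSG00000230021 spans the block on the opposite strand and was above 0 in 3 of 9 libraries, at most at 4.54 RPKM. The microRNA gene ENSG00000278791, antisense within MTCO1P12, was at 0 throughout. The unprocessed pseudogene ENSG00000228327, 90963 bases away, was at 0.847, 4.38 and 0.194 RPKM in the empty vector libraries, against 21.4, 39.8 and 35.5 RPKM in those labelled hPRM1. Without the libraries labelled hPRM1 it would not have reached the minimum for the fit, so no test is given. None of these neighbours came near the levels of MTND1P23 and MTATP6P1.

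Among 14276 genes compared, the summed RPKM of the block was most like RPS2P7, PTMS, GSTA4, KRTCAP2 and BCAT1, with Pearson r of log2 values from 0.991 to 0.986 over the 9 libraries. These r values describe 9 libraries that fall into groups and share their depth. The 5 genes were chosen for following the block over these libraries, so a shared pattern follows from the choice. All 5 genes were highest in hPRM2 replicate 1, as the block was. RPS2P7, a ribosomal protein pseudogene, was at 113 RPKM there, against 11.8 and 16.5 RPKM in the other hPRM2 libraries and 14.5 to 20.4 RPKM in the empty vector. In the libraries labelled hPRM1 all 5 genes were lowest, with RPS2P7 at 0.309 to 1.56 RPKM.

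Nuclear genes for the same respiratory complexes were examined beside the copies. In the libraries labelled hPRM1, all 37 nuclear complex I subunits, all 11 of complex IV and all 17 of ATP synthase passed the test as lower, with median log2 differences of -3.64, -4.96 and -4.21, where 62.5% of all genes tested were lower. After median-of-ratios rescaling 25, 9 and 14 of them passed, all as lower, against 28.9% of all genes. In hPRM2 limma called 0 of these genes, as did the per-gene test of the methods. By limma 4, 1 and 2 of them had an unadjusted p under 0.05, as did 3351 of all 13126 genes tested. Median-of-ratios rescaling called 2 ATP synthase subunits higher in hPRM2, quantile normalization 1 complex I subunit lower, and the fit without replicate 1 called 1 complex I and 1 ATP synthase subunit lower. Of all genes tested, 1.68% were higher, 0.602% lower and 12.3% lower in the same order. The hPRM2 medians were -0.02, 0.38 and 0.27, against 0.26 for MTND1P23 and 0.21 for MTATP6P1. They were 0.53, 0.95 and 0.83 after median-of-ratios rescaling, -0.17, -0.04 and -0.13 after quantile normalization, and -0.40, 0.22 and -0.21 without replicate 1. The 2 most abundant complex I genes were NDUFB1, at -6.16 ± 0.15 (SE) in the libraries labelled hPRM1 and 0.45 ± 0.33 in hPRM2, and NDUFA3, at -1.85 ± 0.51 and 0.52 ± 0.50. The sign of NDUFA3 in the libraries labelled hPRM1 turned under both other scalings. For complex IV they were COX8A, at -3.67 ± 0.18 and -0.03 ± 0.34, and COX7C, at -6.08 ± 0.34 and 0.62 ± 0.67. For ATP synthase they were ATP5F1B, its catalytic subunit, at -3.56 ± 0.17 and 0.09 ± 0.23, and ATP5MK, at -6.02 ± 0.31 and 0.73 ± 0.37.

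Genes that maintain mitochondrial DNA and make or process its RNA were called lower in 35 of 36 cases tested in the libraries labelled hPRM1 and in 0 of 37 in hPRM2, with medians of -2.63 and -0.69. Of all genes tested, 62.5% were lower in the libraries labelled hPRM1, and 1.37% were lower and 1.36% higher in hPRM2. After median-of-ratios rescaling 18 were lower and 1 higher in the libraries labelled hPRM1, against 28.9% and 28.8% of all genes. In hPRM2 the per-gene test also called 0. By limma 5 had an unadjusted p under 0.05, as did 3351 of all 13126 genes tested. Without replicate 1 limma called 5 lower and 2 higher, against 12.3% and 5.30% of all genes tested. POLRMT, the mitochondrial RNA polymerase, differed by -2.70 ± 0.24 (SE), TFAM, which packages mitochondrial DNA and starts its transcription, by -2.56 ± 0.38, and LRPPRC, which stabilises mitochondrial messenger RNAs, by -3.32 ± 0.43 in the libraries labelled hPRM1. The RNA-binding partner of LRPPRC, SLIRP, differed by -7.70 ± 0.27. MTND1P23, at -1.99, had a smaller difference than these 4 genes. The other copies ran from -0.57 for MTCO3P12 to -4.92 for MTND2P28, with MTATP6P1, at -2.81, beyond POLRMT and TFAM. In hPRM2, POLRMT stood at -2.15 ± 0.997, TFAM at -0.95 ± 0.40, LRPPRC at -0.85 ± 0.45 and SLIRP at 0.24 ± 0.17. None of these 4 passed the test. SSBP1, with SLIRP among the 2 most abundant genes of this list, differed by -4.88 ± 0.17 in the libraries labelled hPRM1 and 0.18 ± 0.26 in hPRM2.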

How the data were processed

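The 9 RNA libraries, all labelled HEK293T, were grouped by their titles. The authors counted reads with nf-core/rnaseq (FastQC, Cutadapt, STAR and Salmon, versions not stated), removed mitochondrial genes, divided by library total and gene length, and deposited RPKM values. The build is hg38 per the submitters' processing notes, and the annotation is not given in the sources used here. Symbols were found for 98.6% of the genes in a table of names, and GENCODE 29 named 437 more.

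Reads were estimated from the steps of low values, which lined up once 250 bases were taken off each gene (1963 values in peaks, against 74 with the full length). Estimates cover reads on genes and were not used in tests.

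The comparisons used limma 3.58.1 in R 4.3.3 (trend and robust) on log2(RPKM + 1), for genes with at least 1 RPKM in at least 3 of 6 libraries, with Benjamini-Hochberg adjustment over all genes tested. It replaced the per-gene test of the methods, which was kept as an alternative, and differences of low genes are understated on this scale. The fit was tested on simulated data in which both groups had the spread of the empty vector. That test does not cover the wider spread of the hPRM2 libraries. Alternatives were a pseudocount of 0.1 or of 5, a minimum of 10 RPKM or no minimum, 2 other scalings, all 9 libraries in one fit, a replicate block, no fold threshold and leaving out each library. Sequences were aligned locally with Biopython 1.88, and figures drawn with matplotlib 3.10.9.

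The members, lists and tests were chosen with earlier results of these data known. Named genes are the 7 copies, the 6 other copies with the highest mean RPKM, neighbours within 100 kb, the 5 genes most alike, and the 2 most abundant genes of each nuclear list with POLRMT, TFAM and LRPPRC. Lists came from textbook knowledge, and FASTKD4 had no matching symbol.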

Additional observations from a re-analysis of the deposited data

How the results depend on the processing

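The number of the 7 copies called in the libraries labelled hPRM1 was 4, and it was 2 with median-of-ratios rescaling or quantile normalization, 1 with the per-gene test of the methods and 4 to 5 when a library was left out. In hPRM2 it was 1 (MTATP8P1, too few reads to be read as a difference), and it was 0 with a pseudocount of 5, no filter, a minimum of 10 RPKM, median-of-ratios rescaling, quantile normalization, the replicate block and the per-gene test, and 0 to 1 when a library was left out. Over all genes, 10241 were called in the libraries labelled hPRM1, against 5837 at a minimum of 10 RPKM, 4514 with the per-gene test and 7422 to 9142 without a library. In hPRM2 359 were called, against 89 with no filter, 167 at a minimum of 10 RPKM, 2125 with all 9 libraries in one fit, 9 with the per-gene test and 10 to 2257 without a library, the last without replicate 1 of hPRM2. Of the called genes, 82.9% were lower in the libraries labelled hPRM1 (50.04% after median-of-ratios rescaling, 57.9% after quantile normalization), and 50.1% in hPRM2 (27.2% and 25.2%). MTND1P23 in the libraries labelled hPRM1 turned from -1.99 to 0.20 and 0.058 under these 2 scalings, and NDUFA3 from -1.85 to 0.34 and 0.11. In hPRM2, MTND1P23 was at -0.47 and MTATP6P1 at -0.22 after quantile normalization. Same-numbered libraries of the empty vector and hPRM2 deviated from their group means with correlations of -0.02, 0.08 and -0.08. Libraries with different numbers had correlations from -0.10 to 0.11. With 3 libraries per group these values cannot decide whether the numbers pair the libraries. With the replicate block, 57 genes were called in hPRM2 and 5 of the 7 copies in the libraries labelled hPRM1. The cause of these changes was not tested. Depth limits MTATP8P1, MTCO2P12 and MTCO3P12, each with at most 18 reads in a library. It also limits MTND2P28 and MTCO1P12 in the libraries labelled hPRM1, with at most 9.75 and 7.08 estimated reads there.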
